A study of Homo sapiens with 2 samples.

Results

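Transcripts of 10 genes known as targets of the low-oxygen response, none of them a glycolytic enzyme, were followed in single cells of breast cancer mammospheres. VEGFA, ADM, BNIP3, BNIP3L, NDRG1, FAM162A, EGLN1, ANGPTL4, CA9 and P4HA1 were chosen by name, with no threshold on their values, and they make up 10 of the 19826 genes of the count table. The cells were of the breast cancer line MDA-MB-231, an established line without hormone receptors or amplified ERBB2 and with a mesenchymal look. One culture received no metformin (0 mM, labelled wildtype) and the other 2 mM metformin, a biguanide that lowers mitochondrial respiration. Both were kept for 30 days in flat culture in high-glucose DMEM at their dose, then grown for 10 days as mammospheres, floating balls of cells on plates to which cells do not attach, and taken apart with trypsin and EDTA. The labels name no oxygen level for either culture.

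Cells sense oxygen through HIF, a transcription factor whose alpha subunit (HIF1A or EPAS1) is made all the time. While oxygen is present, prolyl hydroxylases of the EGLN family mark the alpha subunit for the VHL ubiquitin ligase, and it is destroyed. When oxygen falls the subunit persists and switches on genes for blood vessel growth, removal of mitochondria, acid export and collagen modification, and also EGLN1 itself, which closes a feedback loop. Floating spheres of tumour cells are widely used as a model of limited oxygen supply because their centres lie far from the medium. Metformin acts on oxygen use, since respiration is what consumes oxygen in the cell.

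HIF binds DNA at the short motif ACGTG or GCGTG, the core of the hypoxia response element. For VEGFA, BNIP3L and NDRG1 no promoter window was used here. RefSeq promoter windows (build GRCh38.p14) of 250 bases before the transcription start were taken for the other 7 of the 10 genes. They are shown so that the motif can be seen in its surroundings: ANGPTL4, BNIP3 and FAM162A as far as the window lies before every annotated exon, and the others as the 25 bases around a match. Each runs 5′ to 3′ on the strand of the gene, and capitals mark the motif on either strand, so that CACGT and CACGC are the 2 motifs read on the opposite strand.
ADM, chr11:10304962-10304986, plus strand: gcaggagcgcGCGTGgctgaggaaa
ANGPTL4, chr19:8363905-8364150, plus strand: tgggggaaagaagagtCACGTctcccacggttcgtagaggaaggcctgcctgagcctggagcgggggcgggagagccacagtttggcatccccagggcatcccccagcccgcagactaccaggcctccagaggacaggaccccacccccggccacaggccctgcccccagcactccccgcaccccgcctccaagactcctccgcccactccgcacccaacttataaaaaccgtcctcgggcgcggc
BNIP3, chr10:131982014-131982173, minus strand: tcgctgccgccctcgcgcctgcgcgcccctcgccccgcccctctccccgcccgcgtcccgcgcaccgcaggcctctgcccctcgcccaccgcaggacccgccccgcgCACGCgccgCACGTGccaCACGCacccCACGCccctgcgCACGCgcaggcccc
FAM162A, chr3:122383932-122384175, plus strand: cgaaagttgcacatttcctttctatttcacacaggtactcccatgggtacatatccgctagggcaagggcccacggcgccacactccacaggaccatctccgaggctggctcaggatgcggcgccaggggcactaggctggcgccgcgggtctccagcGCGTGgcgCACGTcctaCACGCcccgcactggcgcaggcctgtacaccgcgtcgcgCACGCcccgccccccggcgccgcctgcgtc
EGLN1, chr1:231422288-231422312, minus strand: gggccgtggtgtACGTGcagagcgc
CA9, chr9:35673900-35673924, plus strand: gtttccaatgCACGTacagcccgta
P4HA1, chr10:73096938-73096962, minus strand: tgatcgagctCACGTagcgagggct
At least 1 match stood in the window of each of the 7 genes, while 43.2% of all 35116 windows of this length held one on either strand. The stricter ACGTG stood in 18.5% of all windows. G and C made up 60.4% (CA9) to 81.6% (BNIP3) of the bases in the 7 windows, beside a median of 58% over all windows. Both motifs contain CG, and no background of like G and C share was used, so these shares do not show an excess of the motif. FAM162A had 4 matches within 92 bases of the start, and BNIP3 had 6 when the palindrome CACGTG, which reads as ACGTG on both strands, is counted on each. ADM held the GCGTG form alone, starting 101 bases before the start. The single match lay 13 bases before the start in EGLN1, 18 in CA9, 86 in P4HA1, and near the far end of the window in ANGPTL4. A match of these letters describes the window and does not show that HIF binds there.

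Each dose was 1 library of 1000 cell barcodes, of which 1000 (0 mM) and 991 (2 mM) had at least 500 counts and 300 genes, 1991 cells in all. The libraries held 4403045 and 3264343 counts, and the median cell 3386 and 2509. These counts are called UMIs here, meaning tagged RNA molecules. Median mitochondrial shares were equal at 5.29%. No barcode was shared. Of 7 genes typical of MDA-MB-231 all were present, summing to 7220 and 6081 CPM, the counts of a gene scaled to a common library total, while leukocyte markers (5 of 9 in the table) summed to 25.2 and 28.5 CPM, fibroblast markers (7 of 7) to 4.09 and 6.74 CPM, and none of 6 endothelial markers was in the table. With 1 library per dose no test across samples was possible, and dose and library cannot be told apart. Intervals on values are exact 95% intervals for counting error only. A gene was called higher or lower when its CPM differed at least 1.5-fold and it reached 50 CPM in either library. UMIs were not divided by transcript length, so levels are compared between libraries and not between genes.

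VEGFA, FAM162A and EGLN1 were at least 1.5-fold higher in the 2 mM library, and none of the 7 genes that reached the minimum was 1.5-fold lower. BNIP3, BNIP3L and NDRG1 were within 5% of equal and P4HA1 was slightly higher. ADM, ANGPTL4 and CA9 stayed below the minimum, with ADM 2.00-fold higher and CA9 0.658-fold. Over all 4105 genes compared, 5.04% were called higher (207 genes) and 3.31% lower (136 genes). The median log2 ratio of the 7 was 0.19, beside 0.02 over all genes compared; 4 of the 7 lay above 1, and 2159 of the 4105 did. The counts of genes above 1 in the pathway lists that follow are to be read against that share. With scaling factors from edgeR's trimmed mean of M-values (TMM) over all genes of the table, added after the data were seen, every log2 ratio shifted by −0.09 and the split over all genes turned to 148 higher and 216 lower. VEGFA was then the only one of the 10 genes both past 1.5-fold and above the minimum, as FAM162A came to 0.58 and EGLN1 to 0.51 on the log2 scale.

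**Figure D1:**
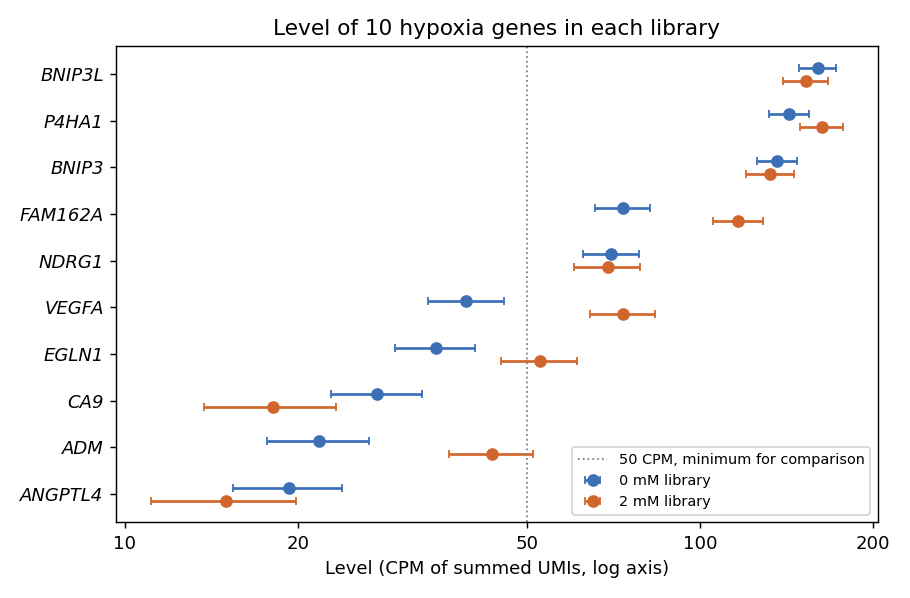
Level of each of the 10 genes in CPM of summed UMIs (log axis) in the 0 mM and 2 mM libraries, with exact 95% Poisson intervals for counting error; the dotted line marks the 50 CPM minimum. The intervals of VEGFA, ADM, FAM162A and EGLN1 lie apart with the 2 mM library higher, and those of BNIP3, BNIP3L and NDRG1 overlap widely.

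VEGFA, ADM and ANGPTL4 encode secreted signals. VEGFA, the growth factor that makes vessels sprout, had 173 UMIs (39.3 CPM) at 0 mM and 240 UMIs (73.5 CPM) at 2 mM, a ratio of 1.87 (1.53 to 2.29). After each cell with at least 1000 UMIs had been thinned to 1000, 4.24% of 944 cells (3.04 to 5.73) held a VEGFA UMI at 0 mM and 7% of 800 cells (5.33 to 8.99) at 2 mM. Without thinning the shares were 13.1% and 17.3%, so the 2 mM library was higher although its cells were shallower. Before thinning, the 173 and 240 VEGFA UMIs lay in 131 and 171 cells. At so few UMIs per cell, more cells with the transcript and more transcript per cell cannot be told apart.

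ADM, adrenomedullin, a peptide hormone that widens vessels, had 96 UMIs (21.8 CPM) at 0 mM and 142 UMIs (43.5 CPM) at 2 mM. The ratio was 2.00 (1.53 to 2.61), and the share of thinned cells with an ADM UMI was 2.44% (1.55 to 3.63) and 4.25% (2.96 to 5.89). One cell of the 2 mM library held 11 ADM UMIs, and no cell of the 0 mM library more than 3. Leaving out the cell with the most ADM UMIs in each library, an alternative added after the data were seen, gave 1.90 (1.45 to 2.51). With every cell given equal weight ADM came to 0.58 on the log2 scale, from 0.996. ANGPTL4, a secreted inhibitor of lipoprotein lipase, had 85 UMIs (19.3 CPM) and 49 UMIs (15.01 CPM), a ratio of 0.778 (0.536 to 1.12) whose interval includes equal levels.

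The receptors and relatives of these signals were mostly sparse. Of 17 listed VEGF and adrenomedullin genes, 3 reached the minimum and all 3 lay above 1, with 2 past 1.5-fold. VEGFB, a relative of VEGFA that is not regarded as a classical hypoxia gene, went from 33.6 to 87.9 CPM (ratio 2.62, 2.14 to 3.21). RAMP1, a coreceptor subunit of the calcitonin and adrenomedullin receptor family, went from 53.4 to 102 CPM (1.91, 1.61 to 2.26). NRP1, a VEGF coreceptor, had 65.4 and 76.0 CPM (1.16, 0.976 to 1.38).

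BNIP3, BNIP3L and FAM162A act at mitochondria. BNIP3 and BNIP3L sit on the outer mitochondrial membrane and tether the organelle to the autophagy machinery, which then removes it. BNIP3 had 600 UMIs (136 CPM) at 0 mM and 433 UMIs (133 CPM) at 2 mM, a ratio of 0.973 (0.858 to 1.10). BNIP3L had 707 UMIs (161 CPM) and 499 UMIs (153 CPM), a ratio of 0.952 (0.847 to 1.07). Both intervals lie inside 1.5-fold in either direction, so a difference of that size would exceed counting error. FAM162A, a mitochondrial protein linked to cell death in low oxygen, had 324 UMIs (73.6 CPM) and 381 UMIs (117 CPM), a ratio of 1.59 (1.36 to 1.85). Its share of thinned cells was 7.63% (6.02 to 9.51) at 0 mM and 9.875% (7.90 to 12.2) at 2 mM. The ratio of FAM162A thus lay above those of the pair with which it shares the organelle.

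Among 19 listed genes of mitophagy and the BCL2 family, 11 were compared, 4 lay above 1 and none was past 1.5-fold; their median log2 ratio was −0.14. SQSTM1, the autophagy receptor p62, went from 1150 to 801 CPM (0.697, 0.664 to 0.731), the lowest of the list. MAP1LC3B and GABARAPL2, ATG8-type proteins that coat the autophagosome, had ratios of 0.832 and 0.755. FUNDC1, another mitophagy receptor of the outer membrane, had a ratio of 1.38 (1.13 to 1.67). BNIP2, another BCL2-interacting protein, had 1.21 (1.01 to 1.45) and BID, a BH3-only protein that promotes cell death, 1.19 (1.06 to 1.34).

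EGLN1 is the oxygen sensor of the set, the prolyl hydroxylase that marks HIF for destruction and is itself switched on by HIF. It had 153 UMIs (34.7 CPM) at 0 mM and 172 UMIs (52.7 CPM) at 2 mM, and the ratio was 1.52 (1.21 to 1.90). The share of thinned cells with an EGLN1 UMI was 3.39% (2.33 to 4.75) and 6.125% (4.57 to 8.02). EGLN1 lies at the threshold: its log2 ratio of 0.60 came to between 0.51 and 0.58 under 5 alternatives and was then no longer called. Its relative EGLN3 was nearly absent, with 6 UMIs at 0 mM (1.36 CPM) and 26 at 2 mM (7.96 CPM), a ratio of 5.84 with a wide interval (2.35 to 17.4). EGLN2, the third hydroxylase, had 39.3 and 42.3 CPM (1.08, 0.854 to 1.35).

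The HIF machinery itself showed no gene past 1.5-fold among the 8 compared of 17 listed, with a median log2 ratio of 0.08. HIF1A went from 245 to 310 CPM (1.27, 1.16 to 1.38), and its oxygen control acts mainly on the protein. EPAS1, the other alpha subunit, had 24.98 and 23.0 CPM (0.920, 0.676 to 1.24). VHL, the ligase subunit that binds hydroxylated HIF, had 54.3 and 66.2 CPM (1.22, 1.01 to 1.47), and CREBBP, a coactivator that HIF recruits, had the highest ratio of the list at 1.36 (1.09 to 1.69). The lowest were TCEB1 (0.803, 0.719 to 0.895) and RBX1 (0.881, 0.796 to 0.974), which encode partners of VHL in the ligase, and CITED2 (0.853, 0.768 to 0.947), which competes with HIF for its coactivators. Thus parts of the ligase lay on both sides of 1.

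CA9, a carbonic anhydrase on the cell surface that helps cells export acid, was the one gene lower by point value beyond 1.5-fold. It had 121 UMIs (27.5 CPM) at 0 mM and 59 UMIs (18.1 CPM) at 2 mM, a ratio of 0.658 (0.473 to 0.905), below the minimum for a call. The thinned shares of 2.33% (1.47 to 3.51) and 1.625% (0.868 to 2.76) overlap. CA12, its surface relative, was lower by more, from 109 to 44.4 CPM (0.409, 0.337 to 0.494). Of 10 listed acid and bicarbonate genes 3 were compared, and CA12 was the only one past 1.5-fold. SLC16A3, the lactate exporter, had a ratio of 1.08 (0.987 to 1.19) and its chaperone BSG 1.23 (1.10 to 1.37).

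P4HA1 is the catalytic subunit of the enzyme that hydroxylates proline in collagen, without which the triple helix does not hold. It had 630 UMIs (143 CPM) and 532 UMIs (163 CPM), a ratio of 1.14 (1.01 to 1.28). Of 11 listed genes for collagen hydroxylation and lysyl oxidation 9 were compared; 8 lay above 1, none past 1.5-fold, with a median log2 ratio of 0.15. P4HA2 had a ratio of 1.04 (0.916 to 1.18) and P4HB, the shared partner subunit, 1.17 (1.09 to 1.24). PLOD3, a lysyl hydroxylase, and LOXL2, a lysyl oxidase, both had 1.31. The lowest of the list were SERPINH1, the collagen chaperone, at 0.952 (0.850 to 1.07), and LEPRE1, a prolyl 3-hydroxylase, at 1.04 (0.910 to 1.18). NDRG1, a stress protein induced by low oxygen and by loss of iron, had 309 UMIs (70.2 CPM) and 226 UMIs (69.2 CPM), a ratio of 0.987 (0.827 to 1.17). The most NDRG1 UMIs in 1 cell was 4 at 0 mM and 9 at 2 mM.

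Of 41 other listed HIF targets 16 were compared, 10 lay above 1 and 1 was past 1.5-fold, with a median log2 ratio of 0.14. That gene was MIF, a secreted cytokine (56.3 and 147 CPM, 2.62, 2.24 to 3.06). TFRC, the transferrin receptor, had 1.47 (1.27 to 1.71) and AK4, a mitochondrial adenylate kinase, 1.33 (1.07 to 1.64). At the lower end stood IGFBP3, a binding protein of insulin-like growth factors (0.727, 0.601 to 0.876), and WSB1 (0.800, 0.710 to 0.901). Glycolysis genes, HIF targets of another branch, had a median of −0.11, with 1 of 14 compared higher (PGAM1, 1.78) and 2 lower (PKM and ENO2, both 0.561). PFKL had 1.36, GPI 1.32 and GAPDH 0.734.

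The fraction of cells in which the 10 genes accumulated was slightly higher at 2 mM by point value, with overlapping intervals. Their summed level was 726 CPM in the 0 mM and 837 CPM in the 2 mM library, and thinned cells held 0.782 and 0.845 of their UMIs on average. At least 1 UMI was found in 50.2% and 52.6% of cells. At least 3 were found in 61 of 944 cells (6.46%, 4.98 to 8.22) and in 63 of 800 cells (7.875%, 6.10 to 9.96). The difference was 1.41 percentage points, with a range from −2.12 to 4.98 that joins the outer bounds of both shares. At the upper end, 1 cell at 0 mM and 8 cells at 2 mM held 5 or more (0.106% and 1%), with a difference of 0.894 points (−0.156 to 1.96). That range is joined in the same way, so its reaching below 0 does not place the difference within counting error. The Fano factor of the sum, its variance over its mean, was 1.19 and 1.32, where 1 is the value of random sampling.

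The shares of single genes show how depth enters. BNIP3 was found in 33.8% of all cells at 0 mM and in 26.0% at 2 mM, but in 12.6% (10.6 to 14.9) and 10.25% (8.24 to 12.6) of thinned cells, whose intervals overlap. BNIP3L had 44.1% and 34.2% before thinning and 16.4% and 15.5% after it, and P4HA1 39% and 33.5% before and 13.6% and 12.6% after. NDRG1 had 22.7% and 15.9% before, and 7.52% and 6.625% after. VEGFA, ADM, FAM162A and EGLN1 were in more cells at 2 mM by the point values of both measures. For each of them the intervals in thinned cells overlap between the libraries, which does not show that the shares are equal. The Fano factor of NDRG1 in thinned cells was 1.004 at 0 mM and 1.42 at 2 mM. ADM, ANGPTL4 and CA9 were each found in fewer than 10% of the cells of either library.

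Interferon-high cells, in which at least 1% of UMIs came from 30 interferon-stimulated genes, numbered 226 (22.6%) at 0 mM and 169 (17.1%) at 2 mM. The class is a range of a score and not a cell type: 122 and 66 of its cells lay below 2%, and 146 and 58 of the other cells above 0.5%. Their median depth was 3277.5 and 2664 UMIs against 3451.5 and 2459 in other cells, and their median mitochondrial share 4.57% and 4.03% against 5.59% and 5.48%; the part of these differences in the results was not tested. In interferon-high cells VEGFA stood at 28.97 CPM without and 67.4 CPM with metformin, a ratio of 2.33 (1.41 to 3.88), and in other cells 42.3 and 74.9 CPM, a ratio of 1.77 (1.42 to 2.21). It was the 1 of 7 genes called in interferon-high cells, where 10.0% of 4079 genes were called higher and 7.01% lower. With the class set at 0.5% of UMIs, 3 of 7 were called there. In the other cells VEGFA, FAM162A and EGLN1 were called higher, 3 of 7, where 5.63% of 4135 genes were called higher and 4.47% lower. None of the 7 was called lower in either class. FAM162A had a ratio of 1.39 (0.988 to 1.96) in interferon-high and 1.64 (1.38 to 1.95) in other cells, and EGLN1 1.43 (0.878 to 2.33) and 1.55 (1.20 to 2.01). These intervals overlap, and the difference between the classes was not tested.

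**Figure D2:**
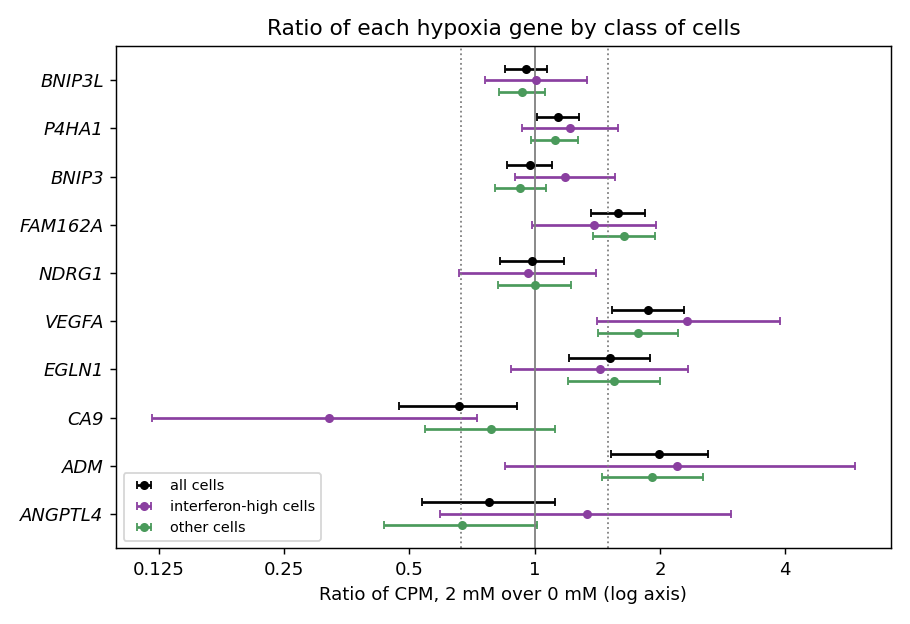
Ratio of CPM, 2 mM over 0 mM (log axis), of each of the 10 genes in all cells, interferon-high cells and other cells, with exact 95% intervals for counting error; dotted lines mark 1.5-fold in each direction. VEGFA lies above 1 in each class, and CA9 lies lowest in interferon-high cells at 0.320.

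CA9 differed most between the classes by point value. Interferon-high cells held 36 CA9 UMIs (36.0 CPM) without and 7 (11.5 CPM) with metformin, a ratio of 0.320 (0.120 to 0.729), while other cells held 85 (24.98 CPM) and 52 (19.6 CPM), a ratio of 0.784 (0.544 to 1.12). Without the interferon-high cells the log2 ratio of CA9 was −0.35, against −0.60 with them. ANGPTL4 lay on either side of 1, at 1.34 (0.591 to 2.96) and 0.668 (0.434 to 1.01). BNIP3 had 1.19 (0.899 to 1.56) and 0.925 (0.802 to 1.07), and BNIP3L 1.01 (0.759 to 1.33) and 0.933 (0.820 to 1.06). P4HA1 had 1.22 and 1.12, and NDRG1 0.967 and 1.001.

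ADM was lower in interferon-high than in other cells of both libraries, although on few UMIs. At 0 mM it had 8.99 against 25.6 CPM (9 and 87 UMIs; ratio 0.352, 0.156 to 0.699), and at 2 mM 19.7 against 48.9 CPM (12 and 130 UMIs; 0.403, 0.203 to 0.728). Across the dose it was higher in both classes, at 2.19 (0.848 to 5.89) and 1.91 (1.45 to 2.54). None of the 5 genes compared between the classes at 0 mM was past 1.5-fold, where 8.92% of 4093 genes were higher and 12.3% lower in interferon-high cells. None of the 7 compared at 2 mM was either, where 10.1% of 4215 genes were higher and 12.6% lower. VEGFA had 0.685 (0.443 to 1.03) at 0 mM and 0.899 (0.626 to 1.26) at 2 mM. The share of cells with at least 3 UMIs of the set was 5.96% (0 mM) and 6.72% (2 mM) in interferon-high cells, and 6.61% and 8.11% in other cells.

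The cells were also clustered with the hypoxia and glycolysis genes left out, which gave 6 clusters. Cluster 0 was G2/M-like (24 G2/M genes among its 50 leading genes), cluster 1 interferon-like (14 interferon genes) and cluster 2 S-phase-like (14 S-phase genes). Clusters 3, 4 and 5 stay unnamed and are led by FBXO32 and DKK1, by LCN2 and CA12, and by mitochondrial ribosomal RNA sequences in shallow cells with a median of 985 UMIs. Cluster 3 held 154 cells at 0 mM and 312 at 2 mM, and the others between 60 and 301.

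ADM stood highest in cluster 4 of the 2 mM library, at 92.9 CPM (52 UMIs) against 20.8 CPM (14 UMIs) in the same cluster at 0 mM, a ratio of 4.47 (2.44 to 8.74). In clusters 0, 1, 2 and 3 its ratio was 1.52, 2.03, 0.904 and 1.41. Of the 5 clusters with more than 1 ADM UMI in each library, cluster 4 had the highest ratio. VEGFA lay above 1 by point value in all 6 clusters. It had 3.18 (1.56 to 6.50) in cluster 0, on 17 and 19 UMIs and below the minimum for a call. Clusters 4 and 1 had 2.49 (1.59 to 3.99) and 2.23 (1.55 to 3.20). The intervals of clusters 2 (1.40, 0.845 to 2.31), 3 (1.31, 0.805 to 2.19) and 5 (1.56, 0.324 to 6.58) include 1. Inside single clusters, 8.68% to 12.1% of the genes compared were at least 1.5-fold higher. FAM162A was more even across clusters 0 to 4, from 1.32 to 1.82. EGLN1 reached 2.13 (1.23 to 3.86) in cluster 3.

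NDRG1 kept its pattern over clusters at both doses. It was highest among clusters 0 to 4 in cluster 1, at 105 CPM (0 mM) and 138 CPM (2 mM), and in cluster 4, at 87.5 and 85.8 CPM. It was between 27.1 and 49.4 CPM in clusters 0, 2 and 3 of either library. The shallow cluster 5 had 129 CPM (16 UMIs) and 94.2 CPM (5 UMIs). CA9 in cluster 1 had 31.5 CPM (43 UMIs) without and 6.77 CPM (5 UMIs) with metformin, a ratio of 0.215 (0.0665 to 0.542), while in cluster 4 it had 29.7 and 33.9 CPM. Differences between clusters were not tested.

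**Figure D3:**
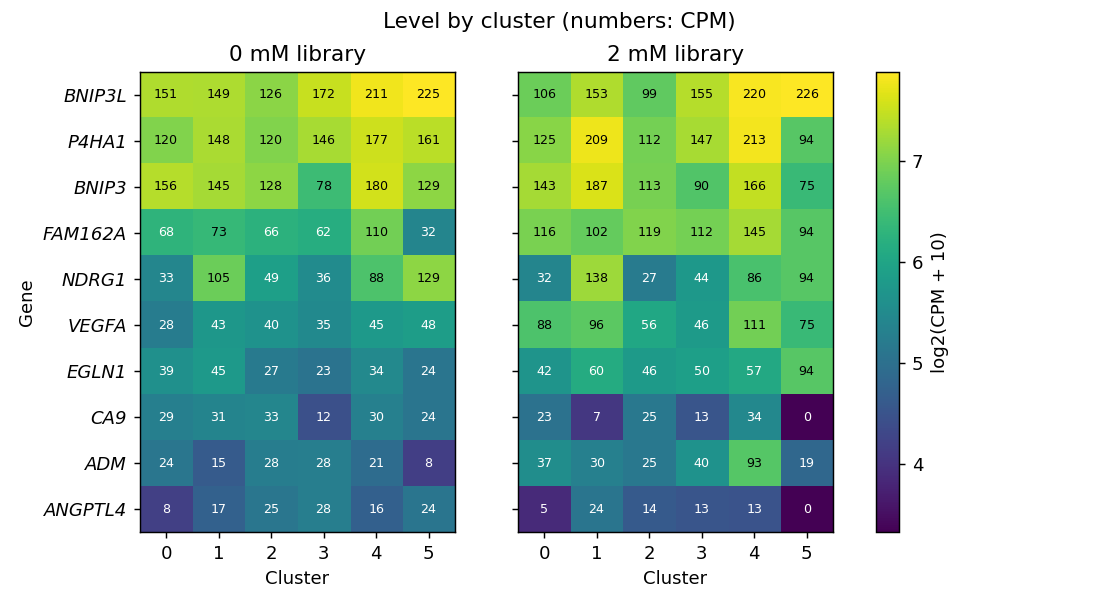
CPM of each of the 10 genes (printed in each field, coloured by log2 of CPM + 10) in clusters 0 to 5 of the 0 mM and 2 mM libraries. ADM stands at 93 CPM in cluster 4 of the 2 mM library, and NDRG1 in both libraries is higher in clusters 1, 4 and 5 than in clusters 0, 2 and 3.

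Few of the thinned cells showed UMIs of several genes of the set, and at this depth sampling alone keeps that number low. Among 944 thinned cells at 0 mM and 800 at 2 mM, 156 (16.5%) and 136 (17.0%) held at least 2 different genes of the 10, and no cell held more than 4 and 5. The mean Pearson correlation of the 45 pairs was 0.0103 and 0.0177, with 28 and 27 pairs above 0, and 0.0312 and 0.0371 at a depth of 2000 UMIs, with 33 and 32 above 0. In counts this sparse correlations of that size are no finding. The highest at 1000 UMIs were BNIP3 with P4HA1 at 0 mM (0.124) and VEGFA with BNIP3 at 2 mM (0.144).

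BNIP3 differed between cells with and without UMIs of the other genes in both libraries. At 0 mM, in cells thinned to 1000 UMIs, it was in 23.4% (16.8 to 31.2) of 145 cells with at least 2 UMIs of the other 9 genes, and in 9.79% (7.38 to 12.7) of 521 cells with none. At 2 mM the shares were 19.3% (13.0 to 26.9) and 7.56% (5.19 to 10.6). P4HA1 had 21.5% (14.9 to 29.4) against 10.1% (7.68 to 13.0) at 0 mM, but 14.8% against 12.3% at 2 mM, with overlapping intervals. VEGFA was the reverse at this depth, with 5.17% against 3.89% at 0 mM and 14.1% (8.82 to 20.9) against 5.25% (3.28 to 7.91) at 2 mM. FAM162A had 7.36% against 7.66% at 0 mM and 14.96% (9.25 to 22.4) against 7.33% (5.003 to 10.3) at 2 mM, overlapping in both. BNIP3L, the close relative of BNIP3, had 19.8% against 15.3% and 15.6% against 16.7%, overlapping in both.

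Only part of this held at a depth of 2000 UMIs, which 701 cells at 0 mM and 588 at 2 mM reached. BNIP3 stayed separated, with 32.6% (26.5 to 39.1) against 14.9% (10.6 to 20.1) at 0 mM and 27.2% (21.7 to 33.3) against 14.4% (9.52 to 20.5) at 2 mM. VEGFA at 2 mM did not, with 12.97% (8.99 to 17.9) against 11.3% (6.95 to 17.1). P4HA1 changed library, overlapping at 0 mM (29.02% against 21.6%) and separated at 2 mM with 35.02% (28.7 to 41.8) against 19.02% (13.6 to 25.4). FAM162A had 17.2% (12.7 to 22.5) against 8.68% (5.30 to 13.2) at 0 mM and 26.7% (21.2 to 32.7) against 15.3% (10.4 to 21.5) at 2 mM, with slight overlap in both. EGLN1 overlapped at 0 mM, with 9.89% (6.62 to 14.1) against 7.41% (4.29 to 11.8). At 2 mM EGLN1 was separated, with 14.3% (10.3 to 19.2) against 5.10% (2.23 to 9.79). CA9 had 8.03% (5.10 to 11.9) against 1.96% (0.537 to 4.94) at 0 mM, resting on 22 and 4 cells, and 5.28% (2.92 to 8.71) against 1.32% (0.161 to 4.70) at 2 mM, which overlap. Among the 10 genes, BNIP3 was the one whose intervals were separate in both libraries at both depths.

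**Figure D4:**
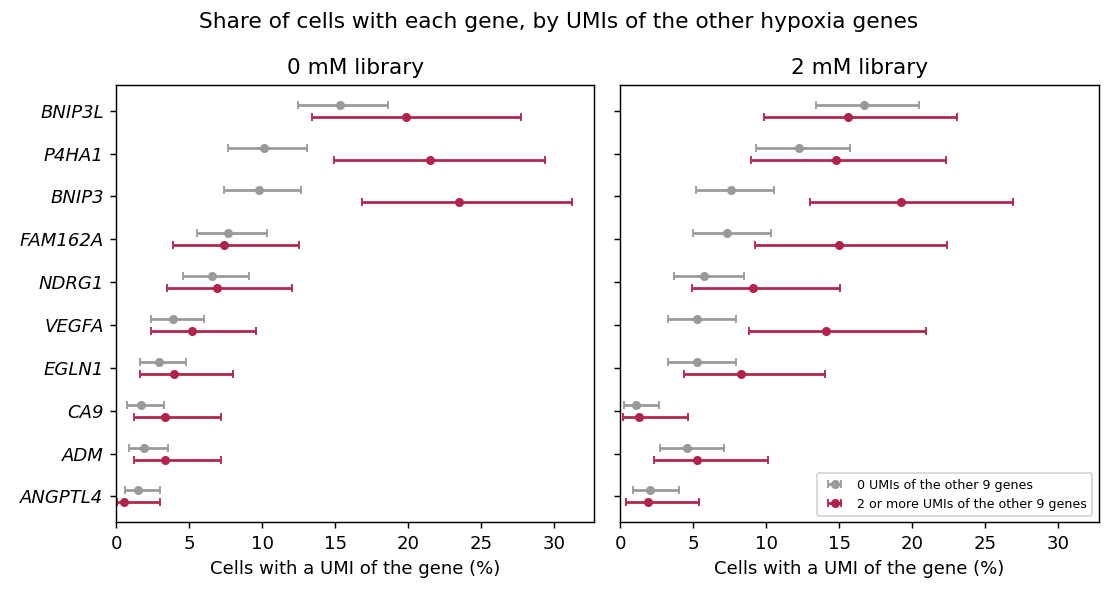
Share of cells with a UMI of each gene (x axis, percent) among cells with 0 or with 2 or more UMIs of the other 9 genes, in cells thinned to 1000 UMIs, with exact 95% binomial intervals for counting error, for each library. BNIP3 is separated in both libraries, P4HA1 at 0 mM, and VEGFA at 2 mM at this depth.

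Glycolytic genes made up 5 of the 10 genes outside the set that were most like it. Among 3497 genes, the 10 with the highest correlation to the summed UMIs of the set (taking the lower value of both libraries, over 944 and 800 cells) were LDHA, ENO1, PGK1, ALDOA, C4orf3, GAPDH, LOX, SLC16A3, CTSD and RPL7L1. The glycolytic ones are LDHA, ENO1, PGK1, ALDOA and GAPDH. The glycolysis list held 14 of the 4105 genes compared across the dose, a larger set than the 3497. None of the genes on the list of other HIF targets, which held 16 of the 4105, was among the 10. SLC16A3 belongs to the acid and bicarbonate list. At 0 mM the 5 glycolytic genes stood at 673 to 2938 CPM, and the other 5 at 60.0 (LOX) to 3296 CPM (CTSD). The part of abundance in this ranking was not tested. LDHA, which turns pyruvate into lactate, had 0.147 at 0 mM and 0.195 at 2 mM, and PGK1 had 0.108 and 0.185. The lower of both values had a median of −0.0206 over the 3497 genes, to be set beside 0.147 and 0.108. The cells of 1 library share depth after thinning, and the values are small.

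Grouping the cells by their UMIs of the set, an analysis added after the data were seen, gave the levels behind this. At 0 mM, cells with 0, with 1 or 2, and with at least 3 such UMIs (470, 413 and 61 cells) held 10.4, 12.6 and 18.0 glycolysis UMIs per 1000. At 2 mM (379, 358 and 63 cells) they held 9.10, 9.75 and 14.6. Within each of the 3 groups the 2 mM library had the lower glycolysis level, while its summed level of the 10 genes over all cells was higher. Other HIF targets differed in smaller steps across the groups, with 2.99, 3.19 and 3.56 UMIs at 0 mM and 2.82, 3.20 and 3.75 at 2 mM. Interferon UMIs showed no common order, with 8.35, 6.79 and 9.57 at 0 mM and 6.43, 5.94 and 5.71 at 2 mM.

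**Figure D5:**
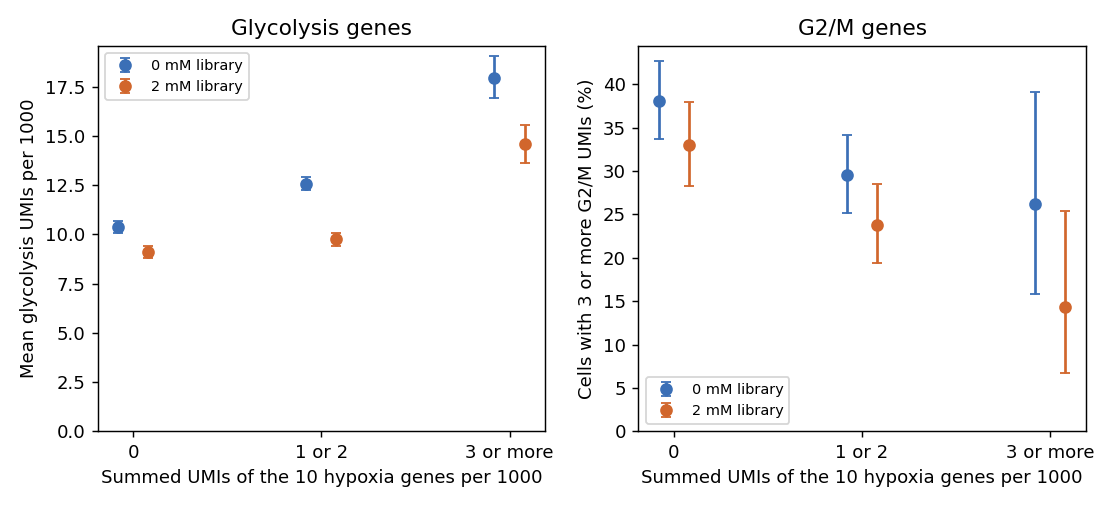
Mean glycolysis UMIs per 1000 (left, with exact 95% Poisson intervals) and percent of cells with at least 3 G2/M UMIs (right, with exact 95% binomial intervals), in cells grouped by their summed UMIs of the 10 genes, for both libraries. Glycolysis UMIs are highest, and the G2/M share lowest by point value, in the cells with 3 or more.

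The share of cells with G2/M transcripts was lower by point value in cells rich in the set, in both libraries. At 0 mM 38.1% (33.7 to 42.6) of cells with none of the 10 genes held at least 3 G2/M UMIs, beside 26.2% (15.8 to 39.1) of cells with at least 3 UMIs of the set. At 2 mM the shares were 33.0% (28.3 to 38.0) and 14.3% (6.75 to 25.4), with intervals that do not overlap, whereas those at 0 mM do. Before thinning, the median cell with at least 3 UMIs of the set had 2774 and 2875 UMIs, against 3746 and 3229 in cells with none; the part of this depth difference was not tested. The libraries also differ in cycle transcripts, since 13 of 33 G2/M genes compared were 1.5-fold lower at 2 mM and none lay above 1. Cells with few cycle transcripts, meaning fewer than 3 G2/M and fewer than 3 S-phase UMIs after thinning, had 51.0 CPM of VEGFA at 0 mM and 92.0 CPM at 2 mM after thinning, and cells with more of them 33.7 and 58.8 CPM. ADM differed between the classes in direction by point value, from 33.7 to 24.2 CPM (14 and 7 UMIs) in cells with cycle transcripts and from 17.0 to 54.8 CPM (9 and 28 UMIs) in cells with few. FAM162A went from 50.6 to 100 CPM in cells with cycle transcripts and from 108 to 121 CPM in cells with few, where its log2 ratio of 0.49 over all UMIs of these cells was no longer past 1.5-fold. NDRG1 had 84.3 and 73.7 CPM in the 2 classes at 0 mM, but 31.1 CPM (9 UMIs) with cycle transcripts and 108 CPM (55 UMIs) with few at 2 mM. Over all UMIs of the cells with few, however, the log2 ratio of NDRG1 was 0.06, near equal. In the G2/M-like and S-phase-like clusters NDRG1 was already low at 0 mM, at 32.5 and 49.4 CPM.

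Some of these counts carry a limit of annotation. BNIP3 has 39 pseudogenes named after it in GENCODE 29 and EGLN1 has 1, and near-identical copies can take reads from the gene. CA9 overlaps ARHGEF39 and the 3′ end of BNIP3L overlaps PNMA2 on the opposite strand, and whether strand was used in counting is not given in the sources used here. All cells are of 1 line, so no cell type that should lack these genes was at hand to give the share that free RNA produces.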

How the data were processed

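Single-cell RNA libraries of MDA-MB-231 mammospheres, 1 at 0 mM and 1 at 2 mM metformin, were analysed from the deposited table of counts, which the authors made per gene and cell barcode. Tools listed in the submitters' processing notes are STAR 2.5.0a and bcl2fastq, with hg19 as the build; the labels' protocols give PCR on beads and Nextera XT. For annotation, strand and collapsing of reads to molecules the entry is "not given in the sources used here", and the counts were taken as UMI counts. Many barcodes lie 1 base apart (96 and 95 end in N), and merging them left 931 and 883 cells.

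Cells needed 500 counts and 300 genes. No doublet caller was run. Counts were summed per library, and ratios of CPM carry exact conditional Clopper-Pearson intervals of 95%, computed with Python 3.11.15, numpy 2.4.6, pandas 2.3.3 and scipy 1.17.1. A run on simulated Poisson counts, the model that the intervals assume, checked their computation only. The intervals ignore the spread between cells and cultures and are therefore too narrow. A count of 3 equals 0.681 and 0.919 CPM. A minimum of 50 CPM in either library and 50 UMIs over both was set for calls. Shares used cells thinned to 1000 UMIs, which left out 56 and 191 shallower cells. Clusters came from scanpy 1.11.5 (2000 variable genes, 20 components, 15 neighbours, Leiden resolution 0.5). Alternative scaling used edgeR 4.0.16 and DESeq2 1.42.0 in R 4.3.3 on the counts, with no test.

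The 10 genes and all lists were chosen with earlier results of these data known. Named are all 10, of each of the 7 pathway lists the 3 highest and 3 lowest ratios (fewer where fewer genes were compared), direct relatives (EGLN2, EGLN3, P4HA2, CA12, HIF1A, EPAS1) and the 10 genes most like the set; 1 gene of these lists is not reported here. The levels in each cycle class, the grouping by UMIs of the set, and the analyses without the cell with the most UMIs and with TMM over all genes were added after the data were seen; the ratio in cells with few cycle transcripts was not.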

Additional observations from a re-analysis of the deposited data

How the results depend on the processing

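Across 12 alternatives in filters, scaling, weighting and cell classes, VEGFA (log2 ratio 0.82 to 1.06), ADM (0.58 to 1.24), FAM162A (0.49 to 0.71), EGLN1 (0.51 to 0.67) and P4HA1 (0.08 to 0.32) stayed above 0, and BNIP3, ANGPTL4 and CA9 (−0.85 to −0.35) below it. BNIP3L crossed 0 under 1 and NDRG1 under 3. Merging barcodes cannot change these ratios, since library sums stay the same, and each scaling alternative adds the same constant to every gene. The median log2 ratio of the genes compared was 0.081 with cells weighted equally, 0.084 with no CPM minimum (10 genes) and 0.40 in cells with few cycle transcripts (8 genes), against 0.19. With no CPM minimum 1 gene, CA9, was lower. The count of 3 higher genes became 1 with TMM over all genes and 0 at 2-fold; with no CPM minimum it was 4, and 2 at a minimum of 1000 UMIs, at most 10% mitochondrial UMIs, DESeq2 size factors or equal weights. FAM162A fell under 1.5-fold in cells with few cycle transcripts (0.49). With interferon-high cells set at 0.5% of UMIs (372 and 227 cells), 3 genes were higher there instead of 1; at 2% (104 and 103 cells) 1 of 5 was, and BNIP3L came to −0.51 in them. The cause of these shifts was not tested. The difference in the share of cells with at least 3 UMIs of the set stayed between 0.316 and 4.57 points over other depths, cell filters and UMI minimums. Each range included 0, but these ranges join outer bounds and are wider than intervals of a difference. Values near equal changed sign without being called: in all cells BNIP3L and NDRG1 ranged from −0.16 to 0.06, while in interferon-high cells NDRG1 came to 0.34 at 2% of UMIs and to 0.39 in the interferon-like cluster, from −0.05. Depth limits ADM, CA9 and ANGPTL4 most, with 49 to 142 UMIs per library.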
